A study of Mus musculus with 23 samples.

Results

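The members described here are 10 RNA-binding proteins that direct alternative splicing in neurons and photoreceptors: Msi1, Msi2, Srrm3, Srrm4, Ptbp1, Ptbp2, Nova1, Elavl3, Elavl4 and Celf4. They were chosen by gene symbol from the deposited gene table, from a list drawn up with earlier results of these data known, and every symbol matched 1 gene on a reference chromosome. They make up 10 of the 52143 genes in that table, and their transcripts make up 86 of the 136550 transcripts in the matching transcript table.

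The RNA came from the neural retina of mouse retinal organoids, dissected and pooled from 12 organoids per library, and was sequenced as strand-specific poly(A) RNA-seq in 23 libraries. All organoids were grown from 1 induced pluripotent stem cell clone that carries the Nrl-GFP transgene, in which the Nrl promoter drives GFP in rod photoreceptors, so every library shares that genotype. From day 10 the cultures received bovine serum albumin alone (BSA), or albumin carrying 26 µM linoleic acid (LA) or 26 µM docosahexaenoic acid (DHA). Libraries were taken at day 26 (2 each for BSA, LA and DHA), at day 32 without FGF1 (3 for each of the 3 media) and at day 32 after 200 ng/ml of the growth factor FGF1 from day 26 (3 for BSA, 3 for LA and 2 for DHA). The culture medium itself also changed at day 26, to one with 2% serum, so the step from day 26 to day 32 with FGF1 holds time, FGF1 and medium together. The labels call the libraries of a group biological replicates. They do not say which came from separate culture rounds, so the spread behind the p-values may in part be technical.

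Polypyrimidine tract binding proteins repress many exons. Ptbp1 is the form of dividing cells, Ptbp2 replaces it as neurons differentiate, and each limits the other through an exon whose skipping sends the transcript to nonsense-mediated decay. The serine/arginine repetitive matrix proteins Srrm3 and Srrm4 drive inclusion of microexons in neurons and photoreceptors. The Musashi proteins Msi1 and Msi2, first known from neural stem cells, bind UAG motifs and are needed in photoreceptors for exons found in few other cells. Nova1 acts on synaptic transcripts, the neuronal Hu proteins Elavl3 and Elavl4 bind U-rich RNA and act on splicing and mRNA stability, and Celf4 binds U- and G-rich sequence in excitatory neurons.

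The libraries fell into 2 sets that differed in depth and composition. The 12 deeper libraries (the 6 day 26 libraries, with replicates 1 and 2 in every medium after FGF1) held 16029580 to 20510550 estimated counts, with 3.02 to 4.24% of them on mitochondrial genes. The 11 shallower libraries (the 9 that had no FGF1 at day 32, with the third FGF1 replicate in BSA and in LA) held 10405663 to 11888224, with 5.55 to 12.5% mitochondrial. GC-rich genes were counted less in the shallower set: the slope of a gene's log2 level per 10 percentage points of GC content ran from 0.60 to 0.88 in the deeper libraries and from -1.21 to -0.11 in the shallower. The authors left 5 libraries out of their normalized table, all of them shallower. Tests were therefore made within a set, and day 26 against day 32 without FGF1, which lie in different sets, cannot be told apart from the set and was not tested.

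Per transcript length, Msi1 was the most abundant member. Over the 12 deeper libraries its level was 419.8 ± 69.7 transcripts per 1000000 (TPM, SD). Ptbp2 followed at 236 ± 30.8, and then came a run of 3 members whose levels lay within their spread of each other: Ptbp1 at 122 ± 12.9, Celf4 at 118 ± 30.9 and Msi2 at 111 ± 21.8. Srrm4 at 99.7 ± 22.7 and Elavl3 at 82.5 ± 16.1 also overlapped with their neighbours. Srrm3 stood at 50.4 ± 7.25, Elavl4 at 27.1 ± 6.42 and Nova1, the lowest, at 17.3 ± 4.01 TPM. All 10 members passed every filter on low counts.

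From day 26 to day 32 with FGF1, in the deeper libraries, Ptbp2 and Elavl3 fell and the other 8 members did not pass the test. The 2 that fell did so by less than 1 log2 unit. Over all genes, 5773 of 20111 tested (28.7%) changed, 14.6% upward and 14.1% downward, so 2 of 10 members is not a larger share than the background. The median difference of the members was -0.01 on the log2 scale, beside 0.00 over all genes. Levels are given below as counts per 1000000 (CPM), scaled within each set by the trimmed mean of M-values.

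**Figure D1:**
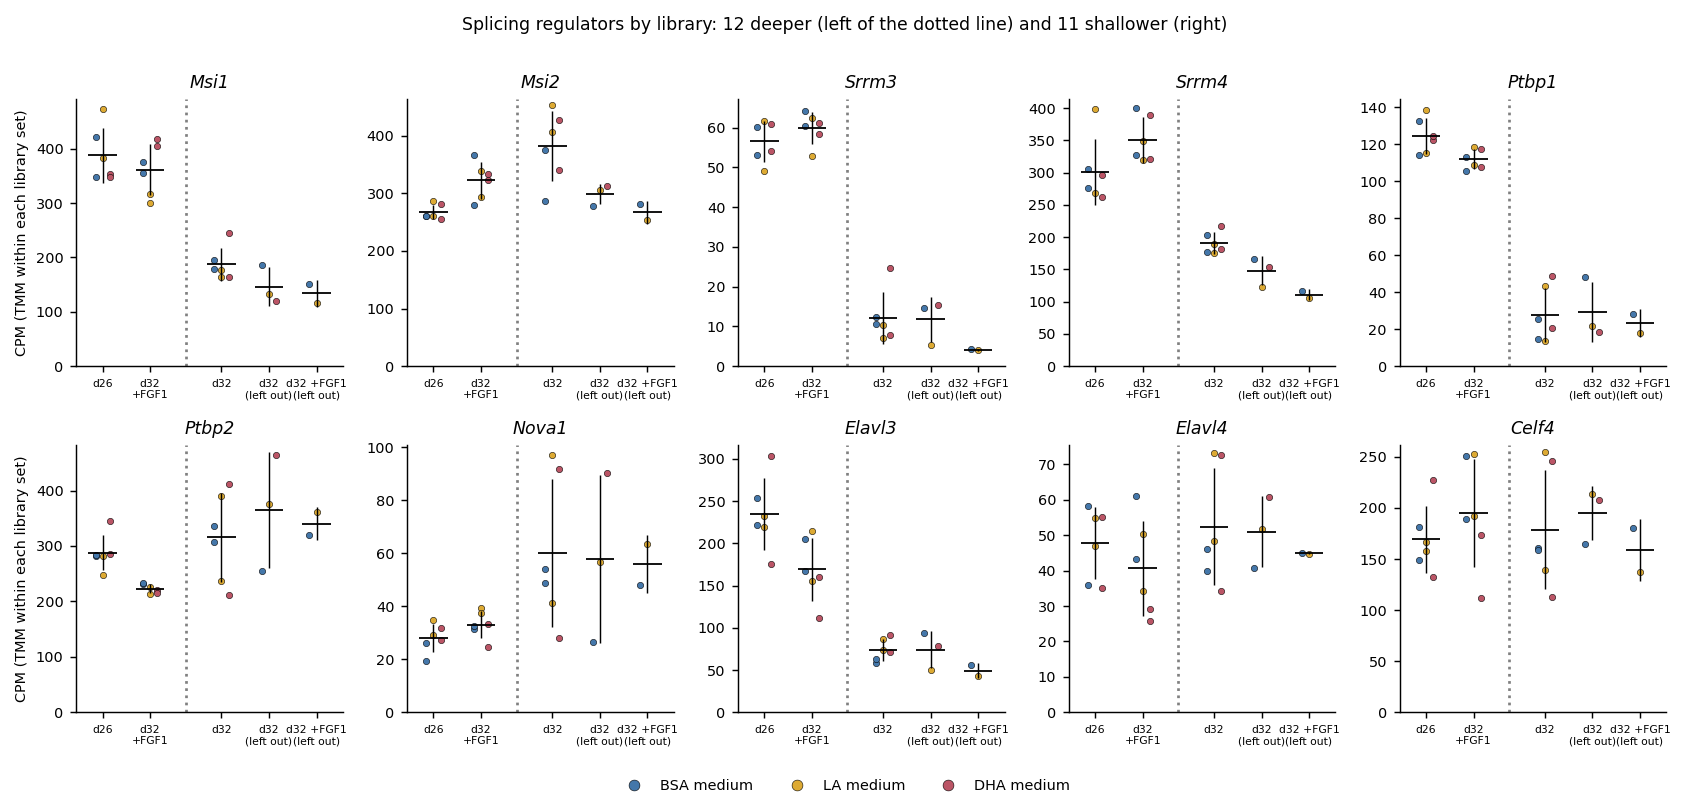
CPM (linear axes from 0, scaled within each set) of each of the 10 members in all 23 libraries, 1 panel per gene. Points are libraries coloured by medium, bars are the mean and SD, and the dotted line parts deeper from shallower libraries. Ptbp2 is the member whose 6 day 32 FGF1 libraries all lie below the 6 day 26 libraries, and Msi1, Srrm3, Srrm4, Ptbp1 and Elavl3 lie lower in every shallower library than in any deeper one.

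Ptbp2, the neuronal polypyrimidine tract binding protein (chr3:119718742-119784466, minus strand, GRCm38), was at 248 to 345 CPM at day 26 (lowest to highest, median 283, n = 6) and at 212 to 233 CPM at day 32 with FGF1 (median 223, n = 6). The groups did not overlap, and Ptbp2 was the 1 member of 10 for which that held, beside 16.2% of all genes tested. It fell by 0.37 on the log2 scale (SE 0.0848, 95% interval -0.55 to -0.18, adjusted p = 0.0074, edgeR quasi-likelihood test with Benjamini-Hochberg adjustment over all genes). The step was downward in each medium, -0.29 in BSA, -0.27 in LA and -0.54 in DHA. Ptbp2 passed with each of the 12 libraries left out in turn, at -0.41 to -0.32.

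Ptbp1, the form of progenitors and glia (chr10:79854427-79864771, plus strand), was at 114 to 138 CPM (median 123) at day 26 and 105 to 119 CPM (median 111) at day 32 with FGF1. The 6 and 6 libraries overlapped, although 4 of the later ones lay below all of day 26. Its log2 difference was -0.15 (interval -0.34 to 0.03, adjusted p = 0.21, edgeR). Ptbp1 and Ptbp2 are similar in sequence, as are Msi1 and Msi2, Elavl3 and Elavl4, and Srrm3 and Srrm4, so the division of any reads common to a pair makes these levels uncertain. How many reads were shared was not measured.

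Elavl3, a neuronal Hu protein (chr9:22015005-22052023, minus strand), was at 175 to 304 CPM (median 228) at day 26 and 112 to 214 CPM (median 164) at day 32 with FGF1. Of the 6 later libraries 4 lay below all of day 26. Elavl3 fell by 0.49 on the log2 scale (SE 0.152, interval -0.82 to -0.15, adjusted p = 0.0321, edgeR), with steps of -0.35 in BSA, -0.29 in LA and -0.81 in DHA. The call rested on single libraries: leaving out BSA replicate 1 or 2, LA replicate 1 or DHA replicate 2 of day 26, or replicate 2 of any medium at day 32 with FGF1, took the adjusted p to between 0.0536 and 0.0972, while the difference stayed between -0.60 and -0.34. Its relative Elavl4 (chr4:110203722-110351909, minus strand) was at 35.2 to 58.1 CPM (median 51.0) and then at 25.8 to 61.1 CPM (median 38.7), with a log2 difference of -0.28 (interval -0.64 to 0.09, adjusted p = 0.239). The day 26 range of Elavl4 lay inside the later one.

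At day 32 with FGF1, Elavl3, Elavl4 and Celf4 were lower in replicate 2 than in replicate 1 in all 3 media. Elavl3 was at 206 and 168 CPM in BSA, 214 and 155 in LA, and 160 and 112 in DHA. Wide gaps within a medium were not particular to these 3, as Msi2 spanned 279 to 367 CPM in the deeper BSA libraries with FGF1. Srrm4 was lower in replicate 2 in none of the media, and the remaining members in 1 or 2. The share of all genes lower in replicate 2 in all 3 media was not counted. Over genes, same-numbered replicates deviated together at day 32 with FGF1, with correlations of 0.33 to 0.54 between media. The summed CPM of 10 markers of amacrine, horizontal and ganglion cells was also lower in replicate 2, at 933 and 814 in BSA, 955 and 685 in LA, and 742 and 571 in DHA. So were the sums of pigment epithelium markers, at 158 and 18.0, 255 and 168, and 9.24 and 8.42 CPM in the same order of media. Those of mesenchyme and fibroblast markers were lower too, at 49.6 and 33.7, 447 and 88.7, and 34.7 and 22.3 CPM. Bipolar and Muller glia sums did not move the same way in every medium. The sums of 9 photoreceptor markers were higher in replicate 2, at 6249.9 and 9146 CPM in BSA, 6114 and 6850.3 in LA, and 7736 and 10428 in DHA, and so were those of 8 progenitor markers, at 387 and 421, 415 and 491, and 414 and 529. The part of these markers in the result was not tested, and in tissue RNA fewer cells of a type and less RNA per cell cannot be told apart.

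Celf4 (chr18:25477632-25754157, minus strand) was at 133 to 227 CPM (median 162) at day 26 and 112 to 253 CPM (median 191) at day 32 with FGF1, the latter range taking in the former. Its log2 difference was 0.18 (interval -0.17 to 0.53, adjusted p = 0.442, edgeR). The steps by medium were 0.42 in BSA, 0.45 in LA and -0.34 in DHA.

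Msi2 (chr11:88339382-88718513, minus strand) was at 256 to 287 CPM (median 261) at day 26 and 279 to 367 CPM (median 328) at day 32 with FGF1, where 5 of 6 libraries lay above all of day 26. The log2 difference was 0.27 (SE 0.0945, interval 0.06 to 0.48), and its adjusted p of 0.0514 with edgeR missed the threshold of 0.05. It passed with DESeq2 (adjusted p = 0.025), with limma voom (adjusted p = 0.0494), with gene counts summed over transcripts (adjusted p = 0.033, edgeR), and without LA replicate 2 of day 26 (adjusted p = 0.0492) or BSA replicate 1 of day 32 with FGF1 (adjusted p = 0.0227, edgeR). It did not pass in the other 10 of 12 fits that left out 1 library (adjusted p = 0.0606 to 0.161, edgeR). Nor did it with the other scaling, without a filter on low counts or with GC offsets. The steps were 0.31, 0.21 and 0.29 in BSA, LA and DHA. Msi1 (chr5:115429599-115455698, plus strand) was at 347 to 474 CPM (median 369) and then 301 to 417 CPM (median 365), with a log2 difference of -0.11 (interval -0.31 to 0.09, adjusted p = 0.417). The Msi1 steps went apart by medium, -0.07 in BSA, -0.47 in LA and 0.23 in DHA.

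Srrm4 (chr5:116439275-116591817, minus strand) was at 261 to 399 CPM (median 286) at day 26 and 319 to 399.7 CPM (median 339) at day 32 with FGF1. The log2 difference was 0.22 (interval -0.03 to 0.48, adjusted p = 0.175, edgeR), and the groups overlapped because LA replicate 2 of day 26, at 399 CPM, reached the top of the later range. Without that library the difference was 0.33 (adjusted p = 0.0338, edgeR). Srrm3 (chr5:135806890-135874772, plus strand) was at 49.2 to 61.6 CPM (median 57.2) and then 53.0 to 64.3 CPM (median 60.8), with a difference of 0.08 (interval -0.12 to 0.29, adjusted p = 0.543). Nova1 (chr12:46694517-46818929, minus strand) was at 19.4 to 34.7 CPM (median 28.3) and then 24.6 to 39.3 CPM (median 32.9), a difference of 0.24 (interval -0.01 to 0.49, adjusted p = 0.148).

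**Figure D2:**
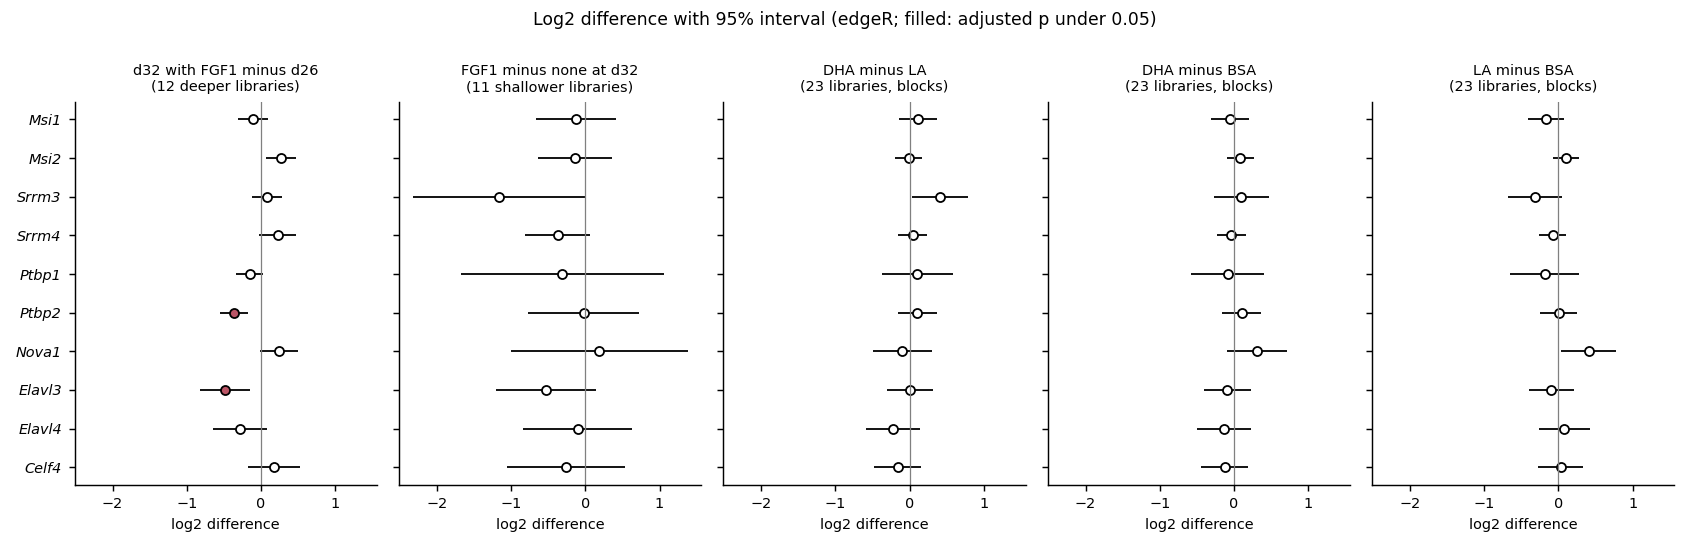
Log2 differences (points) with 95% intervals (lines) for each of the 10 members, from left to right day 32 with FGF1 minus day 26 in the deeper libraries, FGF1 minus no FGF1 at day 32 in the shallower, and the 3 contrasts of media. Filled points passed the test. The intervals of Ptbp2, Elavl3 and Msi2 in the first comparison exclude 0, and those of the FGF1 contrast are wider for every member.

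The steps were then compared between media. No gene of 20111 passed the test for a difference in step between DHA and LA (0%), DHA and BSA (0%) or LA and BSA (0%). An unadjusted p under 0.05 was held by 1272, 443 and 420 genes. Chance gives about 1 in 20 of the genes tested, a share that only the first of these counts exceeded. DESeq2 called 63, 0 and 3 genes and limma voom none, with no member among them. Among the members the Msi1 step was higher in DHA than in LA by 0.70 on the log2 scale (interval 0.21 to 1.19, unadjusted p = 0.009, adjusted p = 0.585, edgeR). Elavl4 and Celf4 had their lowest steps in DHA, by 0.86 and 0.75 under those in BSA, with adjusted p = 0.9999 (edgeR). With 2 libraries per medium and day, the median half-width of the members' intervals was 0.56, so differences smaller than that were not detectable in a typical member. The intervals are not adjusted over all genes, so larger differences could also miss the threshold, as that of Msi1 did.

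The media themselves were compared over all 23 libraries within blocks of day, FGF1 and replicate number, which keep deeper and shallower libraries apart. No gene of 21124 passed in DHA minus LA (0%), DHA minus BSA (0%) or LA minus BSA (0%) by edgeR. An unadjusted p under 0.05 was held by 1012, 462 and 723 genes, none of these counts above the 1 in 20 that chance gives. DESeq2 called 10, 2 and 12 genes and limma voom 125, 0 and 48, again with no member among them. The members differed by -0.22 to 0.41 in DHA minus LA, -0.14 to 0.31 in DHA minus BSA and -0.31 to 0.41 in LA minus BSA. The 2 values at an unadjusted p under 0.05 were Srrm3 in DHA minus LA (0.41, interval 0.04 to 0.78) and Nova1 in LA minus BSA (0.41, interval 0.03 to 0.78). The median half-widths were 0.32, 0.32 and 0.30, so a medium effect under about that size on a typical member was not detectable. Larger effects could also miss the threshold, since these intervals are not adjusted over all genes.

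FGF1 at day 32 could be tested in the shallower libraries, with 2 libraries that received it against 9 that did not and a term for libraries the authors left out, since both FGF1 libraries are among these. No gene of 19484 passed (0%), with 372 at an unadjusted p under 0.05, fewer than the 1 in 20 that chance gives, and no member among them. DESeq2 called 11 genes and limma voom none, also with no member. Srrm3 was at 3.96 and 4.24 CPM in the FGF1 libraries. Without FGF1 it was at 6.97 to 24.7 CPM in the 6 kept libraries (median 10.5) and at 5.22, 14.7 and 15.3 CPM in the 3 left out. All 9 lay above the 2 FGF1 libraries, and the log2 difference was -1.16 (interval -2.33 to 0.00, adjusted p = 1, edgeR). Srrm3 is the most GC-rich member. The 2 FGF1 libraries had GC slopes of -0.82 and -1.05 and 11.9 and 11.7% mitochondrial counts, both inside the range of the other 9, and a summed level of 6 mesenchyme and fibroblast markers of 217 and 243 CPM, above the 17.4 to 132 CPM of the other 9. The highest Srrm3 library, DHA replicate 2, had the mildest slope of the set (-0.11) and its lowest mitochondrial share (5.55%). The part of these in the result was not tested. Elavl3 stood at 42.8 and 55.6 CPM with FGF1, beside 57.9 to 91.3 CPM in the 6 kept libraries without it and 50.2, 79.0 and 93.3 CPM in the 3 left out. The 50.2 CPM lies within the FGF1 range, and the difference was -0.53 (interval -1.20 to 0.14). Srrm4 was at 105 and 117 CPM with FGF1, below all 9 libraries without it (123 to 217 CPM), a difference of -0.37 (interval -0.81 to 0.06). For Srrm3 and Srrm4, the share of all genes set apart in the same way was not counted. The other 7 members ranged from -0.31 to 0.19, and a typical interval spanned 0.74 to either side.

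The libraries that the authors left out were set against the kept ones in the same fit. Of 19484 genes 56 (0.287%) passed, none of them a member. Srrm4 was lower by 0.37 (interval -0.70 to -0.05, unadjusted p = 0.0288, adjusted p = 0.981, edgeR), at 123, 154 and 166 CPM in the left-out libraries without FGF1 and 175 to 217 CPM in the kept ones. The share of all genes with no overlap between those libraries was not counted.

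Some members stood apart between the sets. Msi1, Srrm3, Srrm4, Ptbp1 and Elavl3 were lower in each of the 11 shallower libraries than in each of the 12 deeper ones, 5 of 10 members beside 28.1% of all genes. In the kept libraries without FGF1, Ptbp1 was at 13.4 to 48.6 CPM, Msi1 at 164 to 245, Srrm4 at 175 to 217 and Elavl3 at 57.9 to 91.3. The transcripts of these 5 are 53.1 to 60.5% GC. Of the 5 whose ranges overlapped, Nova1, Elavl4 and Ptbp2 are 39.0 to 42.1% GC, Msi2 51.2% and Celf4 54.4%, and their kept libraries without FGF1 ran from 27.9 to 97.1, 34.4 to 73.2, 212 to 412, 287 to 454 and 113 to 255 CPM. The median of Ptbp1 was 23.0 CPM in those libraries and 123 CPM at day 26, while that of Ptbp2 was 321 and 283 CPM. Day, serum and set cannot be told apart between those 2 groups. At day 32 with FGF1 both sets hold libraries of the same medium, though the shallower ones were left out by the authors. In BSA with FGF1, Ptbp1 was at 113 and 105 CPM in the deeper libraries and 28.5 in the shallower, Msi1 at 356 and 375 against 151, and Srrm3 at 60.3 and 64.3 against 4.24. In LA with FGF1, Ptbp1 was at 109 and 119 CPM against 17.8, Msi1 at 301 and 316 against 117, and Srrm3 at 62.6 and 53.0 against 3.96. The gap between sets was thus present with day, FGF1 and medium the same, in 1 shallower library per medium. The sets were scaled separately, and the difference was not tested.

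Transcript shares were taken next, as the percent of a gene's estimated counts assigned to each of its annotated transcripts. From day 26 to day 32 with FGF1, 552 of 54296 transcripts tested (1.02%) changed their share within their gene, and 1 of 68 member transcripts did. That one, Msi2-206, is a short coding transcript of 405 bases that was listed at 0 in all 6 libraries of day 26 and made up 0.12% of Msi2 counts at day 32 with FGF1 (0 to 16.1 counts per library, adjusted p = 0.0239, edgeR diffSpliceDGE). It passed in 3 of 12 fits that left out 1 library and not with limma diffSplice (adjusted p = 0.541), which called Ptbp1-206 instead.

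The 3 members with close to a single transcript kept it at both times in these libraries. Elavl3-201 took 94.3 ± 1.05% of Elavl3 counts at day 26 (SD, n = 6) and 94.4 ± 1.75% at day 32 with FGF1. Nova1-201 took 92.7 ± 2.30% and 92.6 ± 1.50%, and Msi2-203, the long coding form, 85.6 ± 0.241% and 85.9 ± 1.85%. These are shares of counts, to which long transcripts add more than their share of molecules: divided by length, Nova1-201 made up 49.9% of Nova1 molecules at day 26 and Msi2-203 62.3% of Msi2 molecules.

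Srrm4 split between a coding form and one annotated with a retained intron. Srrm4-201, coding, was at 69.2 ± 5.09% at day 26 and 62.9 ± 5.45% at day 32 with FGF1, and Srrm4-203, with the retained intron, at 26.6 ± 5.42% and 31.8 ± 6.87%. The ranges overlapped, from 19.7 to 34.6% and from 22.4 to 40.6% for Srrm4-203. Srrm3-204 led its gene at 78.2 ± 2.00% and 79.3 ± 0.81%, and Msi1-208 at 75.5 ± 1.37% and 73.5 ± 1.19%.

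Ptbp1 was the most divided. Coding Ptbp1-216 took 29.4 ± 6.95% at day 26 and 26.6 ± 2.40% at day 32 with FGF1, coding Ptbp1-202 27.5 ± 2.79% and 23.9 ± 3.66%, and Ptbp1-213, with a retained intron, 10.3 ± 1.97% and 14.3 ± 2.23%. Ptbp1-201, annotated as a target of nonsense-mediated decay, took 16.1 ± 2.18% and 14.8 ± 3.32%. Ptbp2-201, coding, was at 49.9 ± 1.36% and 47.8 ± 1.61%, and Ptbp2-205, with a retained intron, at 13.1 ± 2.44% and 15.9 ± 1.26%. None of these shifts passed the test.

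Elavl4 shares were unsteady even among replicates. Elavl4-203 ran from 8.50 to 47.2% at day 26 (34.5 ± 14.0%) and from 28.6 to 55.1% at day 32 with FGF1 (44.9 ± 10.2%), on 43.9 to 286 estimated counts. Celf4-202 took 48.9 ± 5.33% and 52.4 ± 8.09%, and Celf4-207 18.4 ± 3.13% and 15.8 ± 3.36%.

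In the shallower libraries the leading transcript often had another share. Of the 6 kept libraries without FGF1, Srrm4-203 took 61.5 ± 4.39% and Srrm4-201 38.3 ± 4.36% of Srrm4, Celf4-202 93.6 ± 2.08% of Celf4, and Msi2-203 98.8 ± 0.945% of Msi2. Ptbp1-216 was listed at 0 in some of them (6.2 ± 11.8%), and Elavl4-206, at 1.3 ± 1.50% at day 26, took 25.2 ± 12.9% of Elavl4. These contrasts lie between the sets and were not tested. Within sets, no member transcript passed the share test with FGF1 (48 tested, beside 0.00218% of all transcripts), in left-out against kept libraries (48, beside 0.0262%), in DHA minus LA (70, beside 0.0613%), DHA minus BSA (70, beside 0.0801%) or LA minus BSA (70, beside 0.0221%). At an unadjusted p under 0.05 there were 0, 1, 2, 2 and 2 member transcripts, and limma diffSplice called none but Nova1-205 in LA minus BSA.

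**Figure D3:**
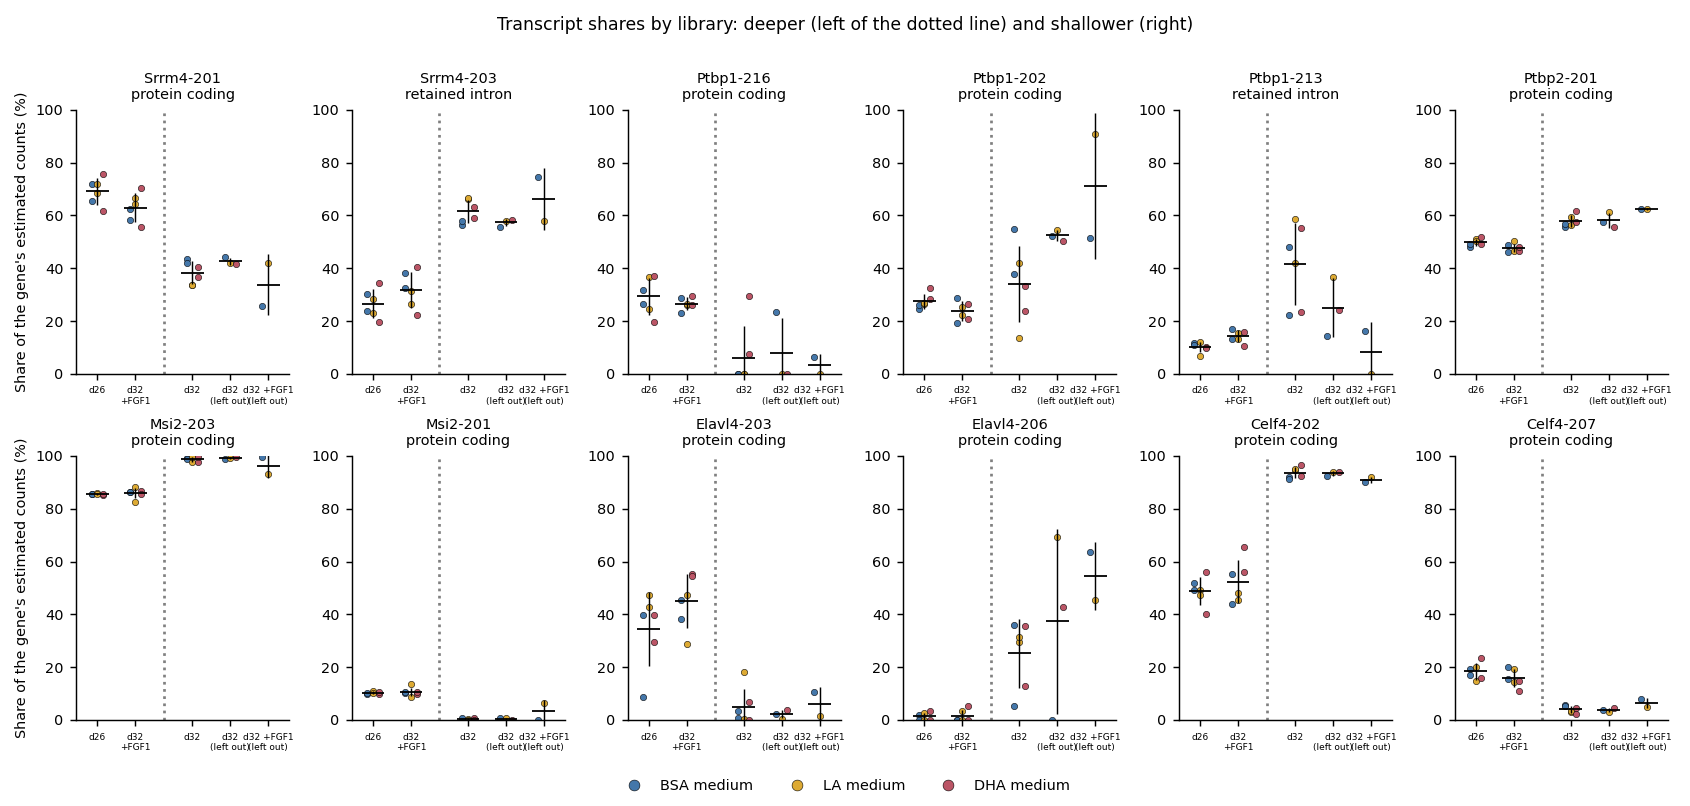
Share of the gene's estimated counts (percent, linear axes from 0 to 100) for 12 transcripts of Srrm4, Ptbp1, Ptbp2, Msi2, Elavl4 and Celf4 in all 23 libraries. Points are libraries coloured by medium, bars are the mean and SD, and the dotted line parts deeper from shallower libraries, with a mean for Srrm4-201 of 69.2% at day 26 and 38.3% in the kept shallower libraries, and for Celf4-202 of 48.9% and 93.6%.

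Single cassette exons were then read out as inclusion, the percent of molecules that hold the exon among those that hold or skip it, with counts divided by transcript length. Members had 9 testable exons, and 3 of them bear on the cross-regulation of Ptbp1 and Ptbp2. They are printed with the 12 bases of the neighbouring exon on each side in lower case and the cassette exon in capitals, 5′ to 3′ on the transcribed strand, from GENCODE M21 transcripts (GRCm38).
Ptbp1 34-base exon: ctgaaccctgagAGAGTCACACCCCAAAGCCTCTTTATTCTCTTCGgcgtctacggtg
Ptbp2 34-base exon: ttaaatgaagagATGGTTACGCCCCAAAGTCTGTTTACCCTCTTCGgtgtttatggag
Ptbp1 78-base exon: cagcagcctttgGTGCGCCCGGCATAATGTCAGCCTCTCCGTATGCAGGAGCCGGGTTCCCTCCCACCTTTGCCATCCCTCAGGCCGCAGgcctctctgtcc

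The 34-base exons of Ptbp1 (chr10:79862014-79862047, plus strand) and Ptbp2 (chr3:119724612-119724645, minus strand) are coding and shift the reading frame when skipped. They are identical at 26 of 34 bases (76.5%). The transcripts that skip them, Ptbp1-201 and Ptbp1-207, and Ptbp2-206 and Ptbp2-208, are all annotated as targets of nonsense-mediated decay. Such transcripts are short-lived, so inclusion read from steady-state RNA runs above the share spliced in.

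Inclusion of the Ptbp2 exon was 48.1 to 55.8% at day 26 (51.5 ± 2.83%, n = 6) and 48.3 to 56.0% at day 32 with FGF1 (52.3 ± 3.01%), with a log2 difference in the ratio of including to skipping of 0.04 (SE 0.134, adjusted p = 0.917, limma). The ranges were close to the same, while the Ptbp2 gene level fell. Without division by transcript length the inclusion was 79.5 ± 2.07% and 80.7 ± 3.02%, so its height depends on that choice. The Ptbp1 34-base exon was included at 72.8 ± 3.01% and 73.6 ± 5.56% (difference 0.08, SE 0.226, adjusted p = 0.911, limma).

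The 78-base exon of Ptbp1 (chr10:79860117-79860194, plus strand) lengthens a linker between RNA-binding domains and keeps the frame, and the form that skips it is known as the weaker repressor. Its inclusion was 34.0 to 41.5% at day 26 and 41.0 to 44.3% at day 32 with FGF1 (38.2 ± 3.20% and 42.9 ± 1.26%, n = 6 each). The ranges overlapped only between 41.0 and 41.5%, and the log2 difference was 0.28 (SE 0.131, unadjusted p = 0.0618, adjusted p = 0.465, limma). Of all 7332 exon events tested 11 (0.15%) passed and none of the 9 of the members did, by limma, with none at an unadjusted p under 0.05.

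The other member exons lay as close. The 57-base exon of Msi1 (chr5:115447130-115447186) was at 76.5 ± 3.40% and 72.9 ± 4.05%, and the 39-base exon of Elavl4 (chr4:110209740-110209778) at 93.7 ± 3.14% and 95.2 ± 2.46%. A 16-base exon of Srrm4 (chr5:116454673-116454688), held by a transcript annotated for nonsense-mediated decay, was at 9.9 ± 3.88% and 11.1 ± 5.95%. In the other comparisons no exon event passed over the whole table: FGF1 (0%), left-out against kept (0%), DHA minus LA (0%), DHA minus BSA (0%) and LA minus BSA (0%). In those the members had 0, 0, 0, 0 and 1 events at an unadjusted p under 0.05.

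Cassette exons were also read in 2 lists of genes that hold exons these proteins are known to act on. The first has 11 genes with photoreceptor-specific isoforms, exons of which need Musashi proteins or Srrm3. The second has 20 with neuronal exons, many of them microexons under Srrm4 or Ptbp control. All testable annotated cassette exons of these genes were taken, so the events are not limited to known targets. From day 26 to day 32 with FGF1, 1 of 15 photoreceptor-isoform events and 1 of 42 neuronal events passed, both toward inclusion. At an unadjusted p under 0.05 there were 7 events in the first list, all toward inclusion, and 8 in the second, 4 of them toward inclusion. The share of all events at that p is not given beside them, so no result about the lists is drawn from these counts. Some events also lie in 1 gene, as those of Prom1 do. The median log2 difference was 0.40 in the first and -0.01 in the second, beside 0.05 over all events. Whatever their p, 12 of 15 and 20 of 42 events lay toward inclusion, beside 54.3% of all events. Events with exons of 30 bases or fewer gave 6 of 8 and 10 of 17, the second close to that share. The exons printed below in the same way were chosen after their values were seen, and all of them rose in mean inclusion.
Prom1 18-base exon: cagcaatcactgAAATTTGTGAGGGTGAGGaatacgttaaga
Clta 36-base exon: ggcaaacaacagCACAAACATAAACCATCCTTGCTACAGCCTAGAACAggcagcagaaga
Cep290 21-base exon: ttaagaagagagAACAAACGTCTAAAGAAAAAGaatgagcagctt
Prom1 27-base exon: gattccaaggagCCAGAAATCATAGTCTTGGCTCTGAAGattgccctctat

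Prom1 encodes prominin 1, a protein of photoreceptor outer segment discs. Its 18-base exon (chr5:44012499-44012516, minus strand) was included at 50.6 to 55.6% at day 26 (53.2 ± 1.82%) and 65.8 to 70.7% at day 32 with FGF1 (68.0 ± 2.32%), with no overlap. The log2 ratio rose by 0.91 (SE 0.0868, adjusted p = 0.0113, limma), and it passed with each library left out in turn (0.85 to 0.96). The 27-base exon (chr5:44058626-44058652, minus strand) went from 73.5 ± 1.85% to 83.2 ± 3.80% (0.87, SE 0.191, adjusted p = 0.142). Among transcripts, the share of Prom1-207, which skips both exons, fell from 10.6 ± 2.30% to 0.0571 ± 0.132%, and that of Prom1-208, which holds both, rose from 5.62 ± 3.78% to 16.2 ± 5.57% (adjusted p = 3.41e-17 and 0.0085, edgeR diffSpliceDGE).

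Clta encodes a clathrin light chain with neuronal exons. Its 36-base exon (chr4:44031400-44031435, plus strand) was included at 15.3 to 27.0% at day 26 (20.7 ± 3.87%) and 35.3 to 45.4% at day 32 with FGF1 (39.6 ± 4.08%), again with no overlap, and its log2 ratio rose by 1.34 (SE 0.162, adjusted p = 0.0268, limma). Without BSA replicate 2 or LA replicate 1 of day 26, or replicate 2 of BSA or LA at day 32 with FGF1, its adjusted p was 0.0704 to 0.0904. Cep290, a protein of the ciliary transition zone, included its 21-base exon (chr10:100495641-100495661, plus strand) at 31.6 to 60.5% (42.4 ± 11.2%) and 47.0 to 73.1% (61.9 ± 8.95%). The groups overlapped and the difference was 1.17 (SE 0.293, adjusted p = 0.189). The share of the including transcript Cep290-201 did pass, from 4.43 ± 6.72% to 20.3 ± 9.65% (adjusted p = 4.70e-10, edgeR diffSpliceDGE), with 1 library of the later group still at 2.22%. In all, 5 of 79 transcripts of the photoreceptor list (4 higher, 1 lower) and 4 of 180 of the neuronal list passed, beside 1.02% of all transcripts. In the neuronal list the share of Dlg4-204 rose from 0.121 to 7.46%, while those of Itsn1-201 (14.2 to 5.91%), Apbb1-209 (14.3 to 7.01%) and Eif4g1-202 (5.21 to 1.11%) fell (adjusted p = 6.56e-25, 0.0013, 0.0194 and 0.0353, edgeR diffSpliceDGE). Between media 1 transcript of these lists passed, Clta-206, which skips the 36-base exon: its share was higher in DHA than in LA (log2 difference from the gene 2.60, adjusted p = 0.0211) and than in BSA (2.60, adjusted p = 0.0102, edgeR diffSpliceDGE). These 2 contrasts have the DHA libraries in common, and the share was uneven, from near 0 to 8.92% at day 26 and to 10.97% at day 32 with FGF1.

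Other photoreceptor exons did not pass. A 24-base exon of Prom1 did not rise, at 29.8% at day 26 and 28.7% at day 32 with FGF1. Ttc8, a subunit of the ciliary BBSome complex, included its 30-base exon (chr12:98937120-98937149) at 57.7 ± 6.38% and 62.9 ± 7.79%. Cc2d2a, another transition zone protein, held a pair of short exons in a single transcript at 54.5 ± 2.30% and 59.0 ± 2.52%. The 75-base exon of Slc17a7, the vesicular glutamate transporter, went from 27.8 ± 3.14% to 37.2 ± 2.47% (adjusted p = 0.151, limma). The 21-base exon of Cacna2d4 (88.7 ± 0.687% and 87.8 ± 1.81%) lay within the spread between replicates. So did, in the neuronal list, the 21-base exon of Mef2d, the transcription factor (18.8% and 18.0%). The 18-base exon of Src, in the same list, went toward skipping, from 54.7% at day 26 to 43.1% at day 32 with FGF1. It did not pass.

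**Figure D4:**
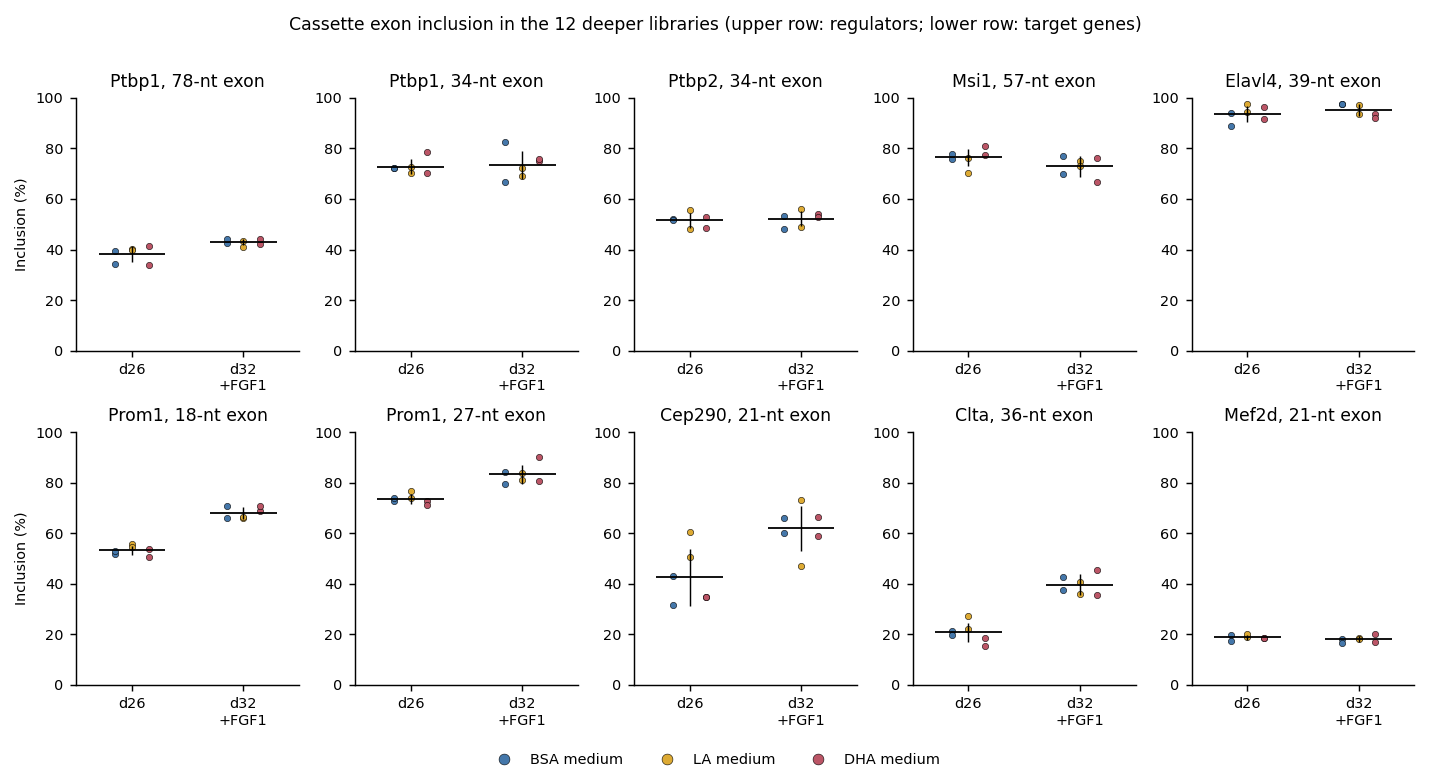
Inclusion (percent, linear axes from 0 to 100) of 5 exons of Ptbp1, Ptbp2, Msi1 and Elavl4 in the upper panels and of 5 exons of Prom1, Cep290, Clta and Mef2d in the lower, in the 12 deeper libraries. Points are libraries coloured by medium and bars are the mean and SD. The 18-base exon of Prom1 and the 36-base exon of Clta have no overlap between day 26 and day 32 with FGF1, while the 34-base exon of Ptbp2 stays between 48.1 and 56.0%.

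Gene levels in these lists, and of the cell markers, stand beside 14.6% of all genes called higher and 14.1% called lower. Of the 11 genes with photoreceptor isoforms 9 rose and none fell from day 26 to day 32 with FGF1 (median 0.70, edgeR), among them Reep6 (1.71, adjusted p = 1.59e-06), Slc17a7 (1.66, adjusted p = 1.24e-06) and Cacna2d4 (1.03, adjusted p = 4.28e-05). Of the 20 genes with neuronal exons 6 rose and 3 fell (median -0.02), with the synaptic scaffold gene Dlg4 at 0.76 and the clathrin light chain gene Cltb at -1.46. Of 9 photoreceptor markers 5 rose and 1 fell, all 6 of bipolar cells and 3 of 5 of Muller glia rose, and 6 of 8 of progenitors and 4 of 10 of amacrine, horizontal and ganglion cells fell. In summed CPM, photoreceptor markers went from a median of 4062 (3653 to 5421) to 7293 (6114 to 10428) and markers of amacrine, horizontal and ganglion cells from 985 (768 to 1241) to 778 (571 to 955), with none of either list at 0 in all libraries of a group. Neurons that hold Elavl3 and photoreceptors that hold these isoforms are among those cells, and the part of cell makeup in the member and exon values was not tested.

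Most other splicing regulators did not pass, and their counts stand beside 28.7% of all genes called. Of 13 further neural regulators 5 fell, none rose and 8 did not pass (median -0.26), among them Rbfox2 (-0.68, adjusted p = 0.0029), Khdrbs3 (-0.43, adjusted p = 0.0241) and Nova2 (-0.39, adjusted p = 0.0381, edgeR). Of 11 regulators expressed in many tissues, Mbnl1, which promotes mature splice forms, rose by 0.99 (adjusted p = 6.07e-05) and Ptbp3, the third member of the Ptbp family, fell by 0.44 (adjusted p = 0.0053). Of 28 core splicing factors 6 fell, none rose and 22 did not pass (median -0.02), the lowest being Rp9, Hnrnpc and Hnrnpa1 at -0.68, -0.66 and -0.62. In the comparisons of media, FGF1 and left-out libraries no gene of these 3 lists passed.

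Across the 12 deeper libraries, the genes whose log2 CPM followed a member most closely were found among 12906 genes with Pearson's r, as a description over libraries that share depth set and days. The closest to Elavl3 were Tfap2b (0.978), a factor of amacrine and horizontal cells, and Rtn1 (0.972). Celf4 was followed by Nrxn2 (0.962) and Agap2 (0.958), Srrm4 by Gpr62 (0.955) and Gnb3 (0.939), and Msi2 by Zfp36l2 (0.958) and Rock2 (0.953). Ptbp1 had Tcf7l2 (0.947) and Chst3 (0.935), and Ptbp2 had Gga2 (0.937) and Tro (0.934). Elavl4 had Gpr26 (0.94) and Mapt (0.931), the neuronal tau gene, and Msi1 had Mtmr3 (0.899) and Gxylt1 (0.89). The likeness was weakest for Srrm3, with Sez6l2 (0.845), and for Nova1, with Ddx41 (0.818) and Tmbim4 (0.815).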

How the data were processed

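RNA-seq of dissected organoid neural retina was analysed from the deposited gene and transcript tables of 23 libraries in 9 groups. Per the submitters' processing notes, reads were trimmed with Trimmomatic 0.36 and quantified with kallisto 0.45.0 against GRCm38.p6, and edgeR is named without a version. The authors deposited the resulting estimated counts per gene and per transcript, made with kallisto per the submitters' processing notes, and these were rounded for the count tests. The normalized signal table the authors deposited for 18 kept libraries was used only to match gene symbols and positions. The strand-specific poly(A) kit is given per the labels' protocols. Estimation error of the counts was not modelled, and the gene table is not the sum of the transcript table for each gene.

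Genes were tested with edgeR 4.0.16 (R 4.3.3; filterByExpr with a minimum count of 10, trimmed mean of M-values scaling, quasi-likelihood test), transcript shares with diffSpliceDGE, and cassette exons with limma 3.58.1 on the log2 ratio of including to skipping molecules (pseudocount 1, at least 20 counts in every library, mean inclusion 5 to 95%), a test added after inclusion values had been seen. Exon structures and sequences come from GENCODE M21, which matched 134551 of 136550 transcripts. All p-values were Benjamini-Hochberg adjusted over every feature tested, with a threshold of 0.05. DESeq2 1.42.0, limma voom, GC offsets, other filters and scalings, replicate blocks and leaving out each library in turn were the alternatives.

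The tests were checked on simulated data. Total estimated counts were 10405663 to 20510550 per library. The members and all gene lists were chosen with earlier results of these data known. The named genes of a list are up to 3 per direction with the largest change among those past the threshold, transcripts are named at a mean share of at least 10% in the deeper or the shallower libraries, and the 2 genes most like each member are named, except 1 that is not reported here. The marker sums, Msi2-206 and the target exons and transcripts were chosen for description after their values were seen. The interaction tests between media were also added after the data had been seen. Same-numbered replicates deviated together at day 32 with FGF1 (correlation 0.33 to 0.54 between media) but not throughout at day 26 (-0.13 to 0.34), and the labels give the numbers no shared origin, so they were not taken as pairs across days.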

Additional observations from a re-analysis of the deposited data

Results flagged for a closer look

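In groups of 6 libraries, a library was marked where its gap to the nearest other, relative to the whole range of the group, passed the 95% critical value for a single outlying value. This was applied to the CPM of the 10 members and to the inclusion of their exons, in 48 groups, and 5 libraries were marked, where chance marks about 1 in 20 groups. Srrm3 stood at 24.7 CPM in replicate 2 of DHA at day 32 without FGF1, beside 6.97 to 12.3 CPM in the other 5 kept libraries. Srrm4 stood at 399 CPM in replicate 2 of LA at day 26, beside 261 to 305 CPM in the other 5. In replicate 1 of DHA at day 26, inclusion of the 34-base exon of Ptbp1 was 78.6%, beside 70.4 to 72.6%, and inclusion of an 84-base exon of Celf4 was 68.4%, beside 74.8 to 76.6%. An 87-base exon of Elavl4 was at 33.2% inclusion in replicate 2 of LA at day 32 with FGF1, beside 0, 0, 0.976, 5.06 and 11.03% in the other 5, on 238 to 498 estimated counts per library. No step of a member differed between media past the threshold.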

How the results depend on the processing

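From day 26 to day 32 with FGF1, each of the 10 members kept its direction under every alternative. Elavl3 and Ptbp2 passed under each one that used all 12 libraries, and Msi2 passed as well with DESeq2, limma voom, gene counts summed over transcripts and the replicate blocks, so 2 or 3 members were called. Leaving out 1 library gave 1 to 4 called members, 0 to 1 member transcripts (1 with all libraries) and 1 to 3 exons of the target lists (2 with all). Member transcripts called were 0 with a minimum count of 50, 0 with the replicate number as a block and 0 with the block within each day, where the adjusted p of Msi2-206 was 0.092 (edgeR diffSpliceDGE). In LA minus BSA limma diffSplice called 1 member transcript, and leaving out 1 library 0 to 1 (Elavl4-205 without replicate 1 and Nova1-205 without replicate 2 of BSA at day 32 without FGF1), where edgeR diffSpliceDGE with all libraries called 0.

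The replicate block, which is not a pairing across days, gave 3 members (Elavl3, Msi2 and Ptbp2), 2 target exons and 0 member exons in the step to day 32. For media the pairing by number was part of the fit, and without it 0 members were called. No paired analysis was possible for left-out against kept libraries because the block and that status are collinear.

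Over all genes the count of calls moved by more than 1.5 times in some comparisons, with no member among the added calls. Left-out libraries gave 158 genes with DESeq2, 146 with limma voom and 214 without a filter (56 with edgeR). FGF1 gave 11 with DESeq2, 32 without a filter and 55 with a replicate block in place of the left-out term (0 with edgeR). The steps by medium gave 332, 84 and 105 without a filter and 63, 0 and 3 with DESeq2 (0 each with edgeR), and the media 10, 2 and 12 with DESeq2 and 125, 0 and 48 with limma voom (0 each with edgeR). Over all transcripts, 552 in the step to day 32 became 264 with a minimum count of 50 and 848 with limma diffSplice. The 12 of left-out libraries became 2 and 29, and the 36, 47 and 13 of the media became 10, 15 and 5, and 33, 67 and 45. The 1 of FGF1 became 12 with the block in place of the left-out term, the 47 of DHA minus BSA became 27 without the block, and the 36 and 47 of DHA minus LA and DHA minus BSA became 23 and 28 in the 18 kept libraries. Over all exon events, 19 passed with a pseudocount of 0.5 or without division by length (11 otherwise), and 9 to 43 with 1 library left out, the lowest without replicate 2 of BSA and the highest without replicate 1 of DHA, both at day 32 with FGF1. Values of members that did not pass changed sign 12 to 30 times per comparison outside the step to day 32. With 2 libraries per medium and day, and 2 FGF1 libraries in the shallower set, depth and number limit what can be seen of small differences.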
